A study of Mus musculus with 3 samples.

Results

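The nuclei described here are 659 of 19259 nuclei from mouse lumbar dorsal root ganglia (DRG), the ganglia that hold the somas of the sensory neurons, and they were chosen by their RNA for Chrna7, Hgf and 4 further genes. A barcode was kept as a nucleus when more than 1000 genes were detected in it. A kept nucleus was chosen when Malat1, an abundant nuclear RNA, made up at least 0.5% of its unique molecular identifiers (UMIs, 1 per captured transcript) and when it held at least 5 UMIs over Chrna7, L3mbtl4, Hgf, Stox1, Sytl3 and Gm10754, from at least 3 of these 6 genes, and when that sum was at least 2 times its UMIs over Lpar3, Tafa4, Gfra3, Nxph1, Trpm8 and Il31ra, which mark other neurons. From the adult library 384 nuclei were chosen, against 177 and 98 from the aged replicates 1 and 2. They are called Chrna7/Hgf nuclei below. Since these 12 genes and Malat1 chose the nuclei, their levels are given as a description, with no test.

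Somatosensory neurons fall into classes that differ in soma size, in the myelin on their axons and in the stimuli they report, and each class carries its own set of ion channels, receptors and neuropeptides. Chrna7 encodes a subunit of nicotinic acetylcholine receptors, which open a calcium-permeable pore when acetylcholine binds. Hgf encodes hepatocyte growth factor, a secreted ligand that is cleaved to its active form outside the cell and acts through the receptor tyrosine kinase Met. L3mbtl4 encodes a chromatin reader of the MBT family, Stox1 a winged-helix protein, Sytl3 a synaptotagmin-like protein of vesicle traffic, and Gm10754 a long noncoding RNA.

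The study sequenced nuclear RNA from C57BL/6 mice of 3 months (adult, 1 library) and 21 months (aged, 2 libraries), from lumbar ganglia L3 to L5, in an experiment on how the cells of the ganglion differ with age. No transgene or treatment is named for these libraries, and how many mice each holds is not stated. The ages are those of the sample labels, and the design text of the series gives a younger age for the aged mice. All 3 libraries are labelled male, but Xist, the RNA that coats the inactive X chromosome of females, had 1414 UMIs per 1000000 UMIs (CPM) over all kept adult nuclei and 844 and 929 CPM over those of the aged replicates 1 and 2, and the Y-linked gene Uty at 2.73, 1.00 and 0.718 CPM. A further Y-linked gene, Ddx3y, was at 20.6, 13.2 and 7.87 CPM. The Xist levels go against the sex label. The methods of the study name female mice for the aged group and both sexes for adults, and sex was not used. They held 69045987 to 167664164 UMIs and 2611 to 11518 kept nuclei each, and 0 or 1 kept barcode was shared between any pair of them. Where 3 values follow each other below, the adult value comes first and those of the aged replicates 1 and 2 follow.

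The 6 genes of the rule were each far above their level in other neuronal nuclei. The comparison group is the 5675 kept nuclei that passed a neuron gate (the same Malat1 minimum, at least 5 UMIs over 10 neuronal genes from at least 3 of them, and at least 2 times their UMIs over glial, vascular, fibroblast and immune markers) and were not chosen. Chrna7 was at 414, 252 and 440.4 CPM in the summed Chrna7/Hgf nuclei against 19.5, 22.8 and 30.3 CPM in other neuronal nuclei. Hgf was at 114, 118 and 175 CPM against 14.5, 17.0 and 19.6 CPM. In both genes the lowest of the 3 libraries stood above every value of the other neuronal nuclei. The nuclei were chosen by these genes, so this gap describes the choice and is no support for it. L3mbtl4 was at 619.6, 737 and 661 CPM, Sytl3 at 222, 194 and 269 CPM and Gm10754 at 613, 457 and 492 CPM. Stox1 differed most between the ages of the 6, at 189 CPM in the adult library against 62.6 and 68.0 CPM in the aged libraries. The other neuron groups did not lack all of these genes. In nuclei with RNA of the peptidergic genes Tac1, Adcyap1 and Gfra3, Sytl3 was at 157, 169.5 and 206 CPM and Hgf at 27.3, 46.5 and 48.7 CPM, whereas in nuclei with Tafa4, Th and Slc17a8 RNA, the genes of C-fibre touch receptors, Sytl3 was at 6.55, 5.61 and 1.46 CPM and Hgf at 1.26, 0.701 and 2.92 CPM.

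**Figure D1:**
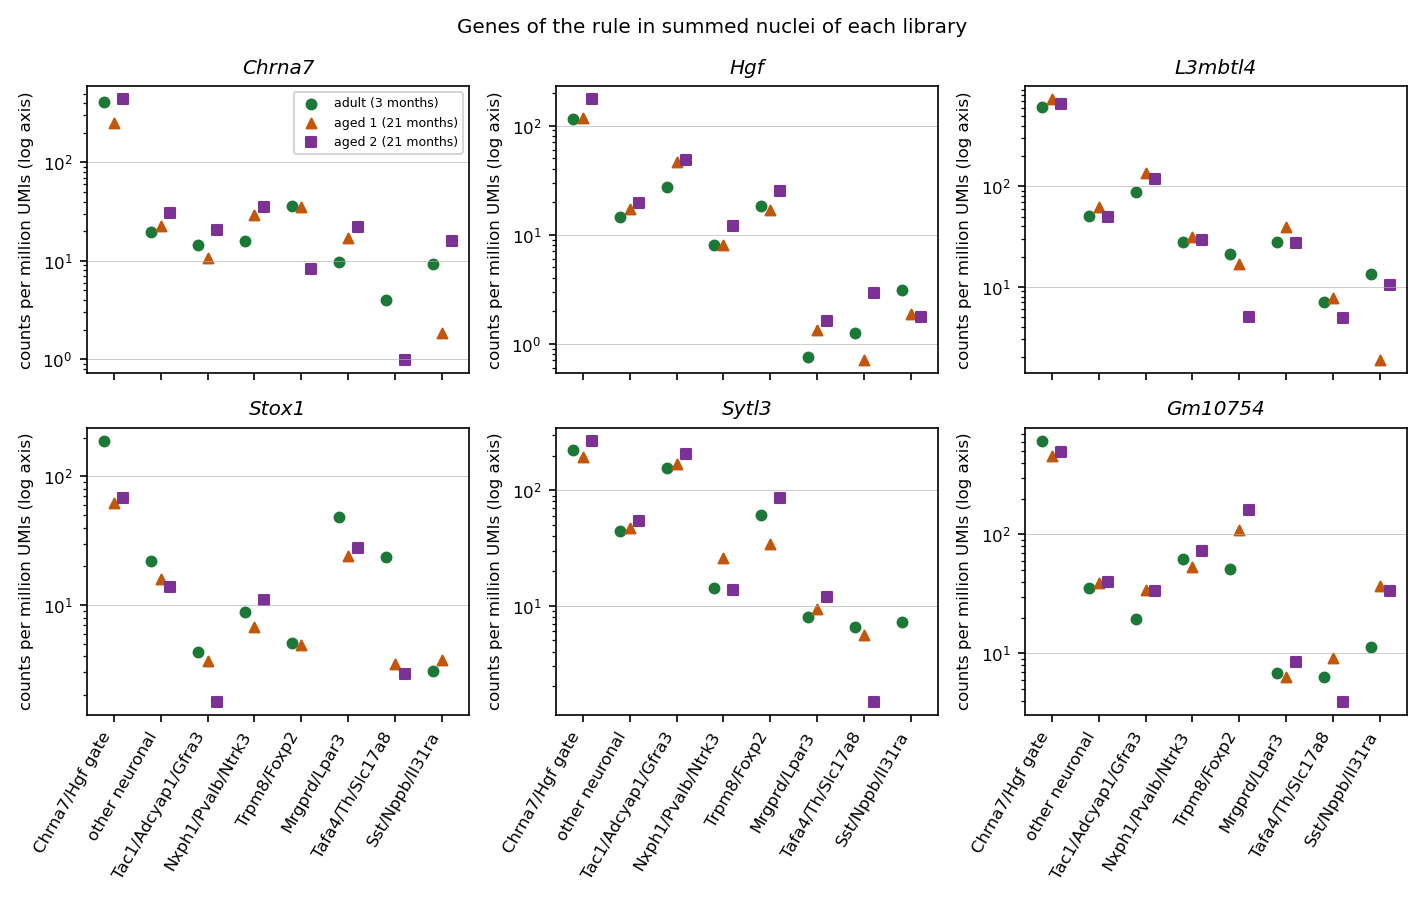
Level of each of the 6 genes of the rule (CPM, log axis) in the summed Chrna7/Hgf nuclei, in all other neuronal nuclei and in 6 groups of these named by their marker genes, with 1 point per library (adult circle, aged replicate 1 triangle, aged replicate 2 square). Sums at 0 are not drawn. Chrna7 stands at 252 to 440.4 CPM in the Chrna7/Hgf nuclei, and the peptidergic group comes nearest to them for Sytl3.

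In the genome (GRCm38, GENCODE M21 annotation) Chrna7 lies at chr7:63098692-63212569 on the minus strand and Hgf at chr5:16553495-16620152 on the plus strand. L3mbtl4 lies at chr17:68273797-68780086 on the plus strand and Sytl3 on the same chromosome at chr17:6659093-6738044, also on the plus strand. Stox1 lies at chr10:62659043-62726128 and Gm10754 at chr10:97681414-97967090, both on the minus strand. The gene C030005K15Rik (chr10:97724874-97726755, minus strand) lies within Gm10754, so that reads of this pair cannot be assigned with certainty.

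Few of the nuclei carried RNA of all 6 genes, and the 2 genes that name the nuclei were found together in about as many as not. Chrna7 had a UMI in 289 of 384 nuclei (75.3%), 135 of 177 (76.3%) and 77 of 98 (78.6%), and Hgf in 245 (63.8%), 100 (56.5%) and 66 (67.3%). Both genes had a UMI in 194 (50.5%), 81 (45.8%) and 54 (55.1%) nuclei. The median depth over all Chrna7/Hgf nuclei was 24069.5, 26458 and 39604 UMIs. As a background, in the Tafa4/Th/Slc17a8 nuclei, with median depths of 23577.5, 40608.5 and 44381 UMIs, Chrna7 had a UMI in 11 of 182 nuclei (6.04%), 0 of 36 (which allows a share of nuclei with a UMI of up to 8.33%, and says nothing of nuclei that express the gene without a UMI) and 2 of 55 (3.64%). This group had the lowest share. Over all other neuronal nuclei it was 14.1%, 15.2% and 20.05% at median depths of 7703, 6297 and 10061 UMIs, in the Mrgprd nuclei 16.2%, 28.3% and 32.6%, in the large-fibre nuclei 23.2%, 24.1% and 36.5%, and in nuclei of the Trpm8 group 32.9%, 35.5% and 17.6%. Hgf had a UMI in 9.42%, 9.10% and 12.9% of other neuronal nuclei and in 20.8%, 38.1% and 44.4% of the peptidergic nuclei, and both genes had one in 2.74%, 2.89% and 4.29% of other neuronal nuclei. L3mbtl4 was the gene found most often, in 354, 166 and 92 of the Chrna7/Hgf nuclei, and Stox1 the one found least often, in 158, 70 (of 177) and 42. All 6 genes had a UMI in 78, 26 and 21 nuclei, and exactly 3 of them in 105, 47 and 20.

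Some of the nuclei lay close to the limits of the rule. The sum over the 6 genes was exactly 5 UMIs in 18, 4 and 0 chosen nuclei and was 4 UMIs in 10, 4 and 4 nuclei that missed the rule by this sum alone. The sum was under 3 times that of the 6 genes of other neurons in 66, 32 and 13 chosen nuclei, and 329, 173 and 126 nuclei missed the rule by this ratio alone. The chosen nuclei did not lack these 6 genes of other neurons, which were together at 230, 211 and 216 CPM. Most of this was Il31ra, at 185, 145 and 154 CPM, with a UMI in 351, 142 and 80 chosen nuclei. Il31ra was at 471, 309 and 300 CPM in other neuronal nuclei, among them 227, 187 and 214 CPM in the large-fibre nuclei. In free RNA from broken cells Il31ra was at 1437, 1117 and 1378 CPM. The part of free RNA in the Il31ra UMIs of chosen nuclei was not tested. The 6 genes of the rule, Chrna7 and Hgf among them, made up a median 0.207%, 0.179% and 0.203% of UMIs in the chosen nuclei. In other neuronal nuclei they made up 0.004%, 0.004% and 0.005%. In 151 of the 659 chosen nuclei they made up less than 0.1%, and these nuclei were deep, with medians of 28737, 42181.5 and 44017 UMIs. No doublet caller was run, and results that use the age test were repeated without the 5% of nuclei with the most UMIs.

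Neuronal genes were present in the Chrna7/Hgf nuclei. Of the 659 nuclei, 370, 171 and 96 also passed the neuron gate. Rbfox3, which encodes the neuronal nuclear antigen NeuN, was at 424, 376 and 455 CPM, and Snap25, a protein of vesicle fusion, at 729.7, 678 and 594 CPM. The intermediate filament gene Prph was lower than in other neuronal nuclei, at 307, 358 and 325 CPM against 713, 616 and 533 CPM. Markers of glia, vessels, fibroblasts and immune cells together made up 0.135%, 0.138% and 0.137% of the summed UMIs, against 0.156%, 0.148% and 0.125% in other neuronal nuclei, and 5 of these 37 markers were at 0 in at least 1 library. From the markers of satellite glia, myelinating Schwann cells and fibroblasts among them, free RNA from broken cells could make up at most 10.6%, 13.0% and 15.9% of the summed UMIs, and a tighter limit for the adult library is given with Dsp below.

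Beside other neuronal nuclei, the Chrna7/Hgf nuclei held more RNA for, among others, Col11a1, Tafa1, Bmpr1b and the proton-gated channel Asic3. They held less RNA for marker genes of the Mrgprd, Tafa4/Th, peptidergic, Sst/Nppb and Trpm8 neurons. Of 14967 genes compared (0.5 UMI added to each sum), 380 were over 2-fold higher in each of the 3 libraries (2.54%) and 722 were under 0.5 times the level of other neuronal nuclei in each (4.82%). The median ratio over all compared genes was 0.884, 0.931 and 0.926. These ratios describe how the nuclei differ and were not tested, since the choice of nuclei used the same contrast. Of the compared group markers outside the rule, 2 of 2 for Mrgprd, 2 of 2 for Tafa4/Th and 3 of 3 peptidergic ones were under 0.5 times. So were 2 of 2 for Sst/Nppb, 1 of 1 for Trpm8 and 1 of 2 large-fibre ones. The counts of list genes here and below stand beside the same 2.54% and 4.82% over all compared genes.

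Among the genes outside the rule with the highest ratios, Col11a1, a chain of fibrillar collagen, was at 549.7, 498 and 412 CPM against 66.3, 59.3 and 50.8 CPM in other neuronal nuclei, ratios of 8.29, 8.39 and 8.11. A further collagen gene, Col16a1, had ratios of 7.57, 5.57 and 7.67. Tafa1, which encodes a small secreted protein of the nervous system, was at 2688, 1941 and 2256 CPM, with ratios of 9.86, 7.07 and 10.1. In the large-fibre nuclei Tafa1 was at 426, 622 and 500 CPM. These genes had like ratios in all 3 libraries. Sema5a, a transmembrane semaphorin, was less even, with ratios of 4.59, 8.51 and 10.9. Cdh4, a cadherin, had ratios of 6.46, 4.48 and 6.97, and Antxr1, a collagen-binding receptor that also binds anthrax toxin, 4.45, 4.66 and 5.54. Bmpr1b, a type I receptor for bone morphogenetic proteins, was at 125, 152 and 216 CPM, 6.94-, 6.61- and 8.50-fold above other neuronal nuclei.

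Asic3, which encodes an acid-sensing channel of sensory neurons, was at 375, 282 and 261 CPM against 61.6, 50.8 and 41.0 CPM, ratios of 6.09, 5.55 and 6.36. The peptidergic group (94.2, 105 and 64.4 CPM) and the nuclei with Nxph1, Ntrk3 and Pvalb RNA of large-fibre neurons (96.9, 82.5 and 108 CPM) came next. Smr2, a submaxillary gland androgen regulated protein, was low in amount, at 8.30, 9.25 and 19.1 CPM, and was 6.98-, 12.6- and 19.7-fold above other neuronal nuclei. Grid2ip, a scaffold of delta glutamate receptors, had ratios of 5.60, 8.24 and 8.70, and Nod2, an intracellular sensor of bacterial cell walls, 6.37, 5.03 and 7.31. Nod2 was at 18.5, 27.4 and 34.9 CPM, and in nuclei of the Sst/Nppb group at 2.06, 20.4 and 8.77 CPM. Tk1, a thymidine kinase, had ratios of 4.96, 4.54 and 5.48 at no more than 5.70 CPM. The other genes of highest ratio are noncoding or of unknown role. C030005K15Rik, which lies within Gm10754, was at 12.0, 10.1 and 10.3 CPM with ratios of 20.4, 23.4 and 32.1. The noncoding 4930473O22Rik (chr10:97590984-97596931, minus strand) lies next to that locus and had ratios of 13.8, 11.1 and 26.4. E230016K23Rik, Gm19299, Platr15, Gm12589, F730043M19Rik and C230057M02Rik had smallest ratios between 4.42 and 7.56. Platr15, at 26.1, 20.5 and 21.9 CPM, was not far below this in the peptidergic group, at 22.8, 15.2 and 14.1 CPM.

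**Figure D2:**
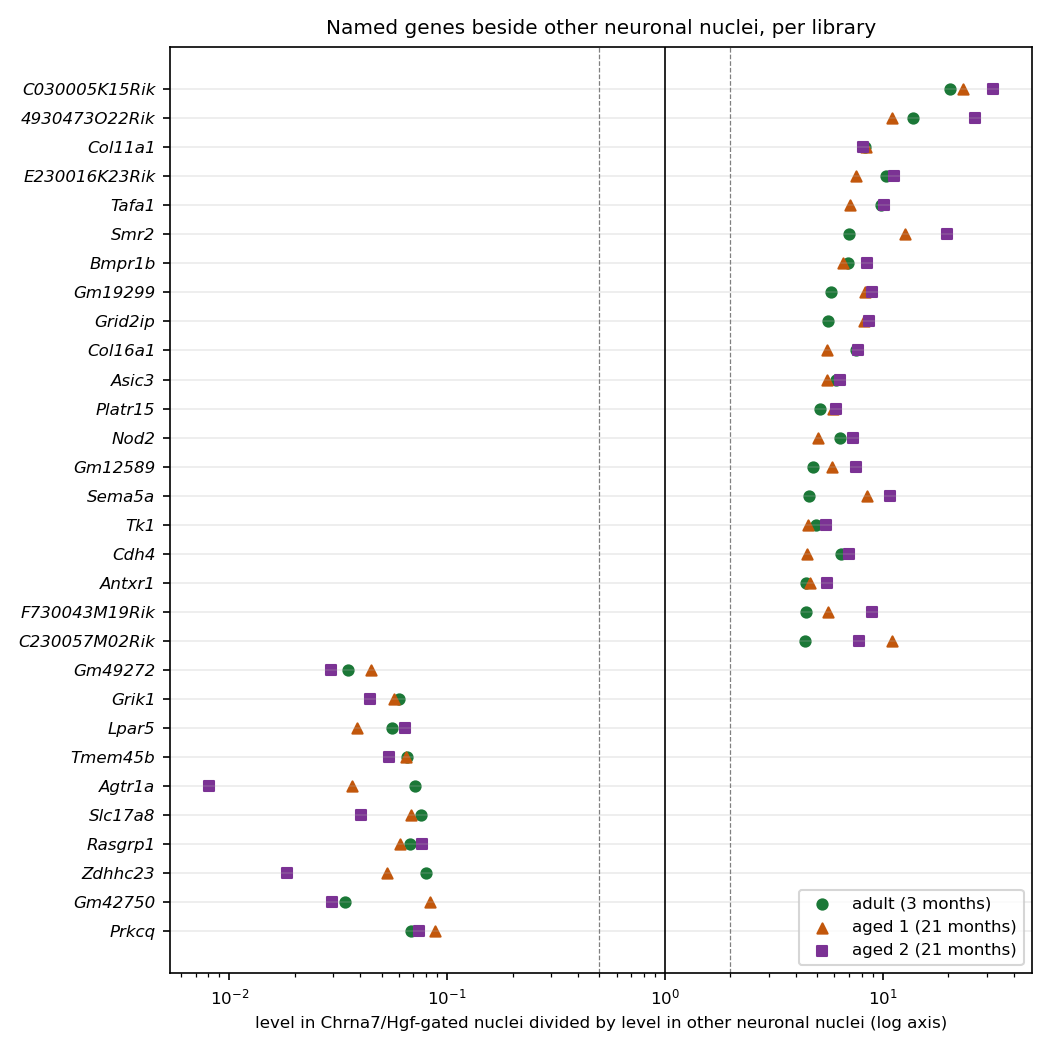
Ratio of the level in Chrna7/Hgf nuclei to the level in other neuronal nuclei (log axis) for the 20 genes of highest and the 10 genes of lowest ratio outside the rule, with 1 point per library. The solid line marks a ratio of 1 and the dashed lines 0.5 and 2. Every named gene lies on 1 side of the dashed lines in each library, and Agtr1a and Zdhhc23 spread most.

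At the other end, Grik1, a kainate receptor subunit, was at 247, 192 and 162 CPM in Chrna7/Hgf nuclei against 4096, 3347 and 3658 CPM in other neuronal nuclei, ratios of 0.0603, 0.0573 and 0.0444. It was at 14045, 9241 and 9849.9 CPM in the group of nuclei with Mrgprd and Lpar3 among its marker genes, and the peptidergic group was as low as the Chrna7/Hgf nuclei, at 215, 163 and 151 CPM. Agtr1a, an angiotensin receptor, was at 1.61, 1.30 and 0.219 CPM against 92.5, 118 and 123 CPM in the Mrgprd nuclei. Prkcq, protein kinase C theta, was at 7.76, 12.1 and 9.87 CPM against 448, 402 and 402 CPM there. All 3 were highest in the Mrgprd nuclei among the 6 groups. Slc17a8, a vesicular glutamate transporter, was at 1.43, 1.01 and 0.877 CPM and at 129.6 to 179.9 CPM in the Tafa4/Th nuclei, a group chosen with this gene. Rasgrp1, an exchange factor for Ras, had ratios of 0.0677, 0.0611 and 0.0769, Tmem45b of 0.0652, 0.0649 and 0.0543 and the lysophosphatidic acid receptor Lpar5 of 0.0561, 0.0386 and 0.0641. Zdhhc23, Gm49272 and Gm42750 had ratios below 0.0834.

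Of 12 compared genes of the list of nicotinic receptor subunits and their partners (the rule gene Chrna7 left out), 1 was over 2-fold higher in each library and 4 were under 0.5 times. The one was Chrna3, a subunit of ganglionic receptors, at only 2.59, 6.07 and 11.8 CPM. Chrnb3 and Chrna6, subunits that pair with each other, were lower, with Chrna6 at 1.34, 6.79 and 3.07 CPM and at ratios of 0.0897, 0.241 and 0.132. Ric3, a chaperone for this receptor, was at 38.0, 61.0 and 50.9 CPM with ratios of 1.05, 1.22 and 1.03, whereas Tmem35a, another chaperone of it (NACHO), had ratios of 0.425, 0.366 and 0.411. Lynx1, a membrane-anchored modulator of nicotinic receptors, was at 81.2, 74.1 and 86.4 CPM with ratios of 0.997, 1.20 and 1.73.

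Among the genes around Hgf, the receptor was close to the detection limit, and an inhibitor of its activating proteases was high. Met was at 1.16, 1.88 and 1.10 CPM, against 1.81, 1.82 and 2.08 CPM in other neuronal nuclei. Spint2, which encodes a membrane-bound inhibitor of the serine proteases that activate hepatocyte growth factor, was at 484, 130.0 and 141 CPM against 78.7, 34.7 and 20.6 CPM, ratios of 6.16, 3.75 and 6.87. It was the one gene over 2-fold higher among 5 compared genes of this list. Hpn, a membrane serine protease that cleaves the growth factor, was at 11.2, 14.6 and 17.1 CPM with ratios of 1.56, 2.56 and 2.57. Gab1, an adaptor of Met, had ratios of 0.745, 0.670 and 0.696, and Plxnb1, a semaphorin receptor that associates with Met, 0.457, 0.352 and 0.404.

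Trpv1 and Trpa1 were low, and Piezo2 was near its level in other neurons. Of 20 compared genes of the TRP, Piezo and acid-sensing channel list, Asic3 alone was over 2-fold higher and 7 were under 0.5 times. Trpv1, the capsaicin and heat receptor, was at 18.7, 36.8 and 27.9 CPM against 93.8, 86.0 and 95.2 CPM, and Trpa1, the irritant receptor, at 1.87, 4.19 and 2.85 CPM against 15.9, 29.8 and 27.6 CPM. Asic2 was also lower, at 540.5, 532 and 560.2 CPM against 2511, 1960.0 and 1876 CPM, so that the 2 acid-sensing channel genes stood on opposite sides of other neuronal nuclei. Piezo2, the channel of touch, was at 1571, 1419 and 1316 CPM with ratios of 0.892, 1.19 and 1.01. Trpm3 had ratios of 0.709, 0.739 and 0.665.

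Of 13 sodium channel genes none was over 2-fold higher, and 1 was under 0.5 times. Scn11a, the persistent sodium channel of nociceptors, was at 85.7, 151 and 129.8 CPM against 391, 418 and 421 CPM. Scn10a, the other tetrodotoxin-resistant channel, did not share this, at 853, 745 and 946 CPM with ratios of 0.899, 0.825 and 0.947. Scn8a, a channel of nodes and myelinated axons, was at 411, 387 and 385 CPM with ratios of 1.68, 1.94 and 1.93.

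Of 46 potassium channel genes 5 were over 2-fold higher and 11 under 0.5 times. The 5 were Kcnq5, a channel of the M-current, with ratios of 4.61, 3.67 and 4.22, the sodium-activated Kcnt2 (4.37, 3.18 and 5.03), the leak channel Kcnk10 (3.53, 3.60 and 4.69), the small-conductance calcium-activated Kcnn2 (2.72, 2.11 and 2.70) and Kcnh5 of the ether-a-go-go family (3.17, 3.69 and 3.14). Kcnc2 and Kcnd2, which carry fast delayed and transient currents, were among the low ones, with ratios of 0.137, 0.326 and 0.240 for Kcnc2. Of 25 calcium channel, pump and store genes, the 2 that were over 2-fold higher were the ryanodine receptors Ryr2 (654, 657 and 638 CPM, ratios of 3.36, 3.11 and 3.67) and Ryr3 (466, 458 and 499 CPM, ratios of 3.70, 5.26 and 5.17), which release calcium from the endoplasmic reticulum. The one under 0.5 times was the T-type channel gene Cacna1i.

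Receptors for serotonin, acetylcholine and nucleotides were also among the higher genes. Of 26 compared genes of the purine, serotonin, opioid and muscarinic receptor list, 5 were over 2-fold higher and 2 under 0.5 times. Htr3a, the main subunit of the serotonin-gated channel, was at 51.4, 70.5 and 69.5 CPM against 15.4, 17.2 and 13.9 CPM, and its partner subunit Htr3b had ratios of 3.90, 2.60 and 3.35. Chrm2, an inhibitory muscarinic receptor, was at 156, 181 and 133 CPM with ratios of 3.31, 3.26 and 2.49. The remaining 2 of the 5 were P2ry2, a receptor for ATP and UTP, with ratios of 4.20, 3.82 and 4.37, and P2rx6. Oprm1, the mu opioid receptor, was at 189, 226 and 313 CPM with ratios of 1.24, 1.03 and 1.59. Of 31 glutamate and GABA receptor genes, the metabotropic Grm8, Grm5 and Grm4 were over 2-fold higher, with ratios of 3.11, 2.53 and 3.29 for Grm8, and Grik1, Gabrb1 and Gabrg3 were among those under 0.5 times.

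None of 17 compared trophic receptor genes was over 2-fold higher in each library. Ntrk3, the receptor for neurotrophin-3, came nearest, at 1138, 981 and 785 CPM with ratios of 1.98, 2.21 and 1.84. Gfra2, a receptor for neurturin, was among the 3 genes under 0.5 times, at 17.3, 23.4 and 18.0 CPM against 221, 204 and 222 CPM. No neuropeptide gene of 11 compared was over 2-fold higher, and 8 were under 0.5 times. Tac1, which encodes substance P, was at 25.4, 57.1 and 48.0 CPM against 196, 167 and 141 CPM, and Calca, which encodes calcitonin gene-related peptide, at 233, 324 and 316 CPM with ratios of 0.438, 0.898 and 1.05.

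Among transcription factors, Runx1, a determinant of non-peptidergic nociceptors, was at 46.9, 60.7 and 50.9 CPM against 415, 407 and 431 CPM. It was 1 of 7 under 0.5 times among 37 compared. Meis2 (105, 118 and 87.1 CPM, ratios of 2.44, 2.47 and 2.57) and Bcl11b (ratios of 2.09, 2.58 and 4.36) were the 2 over 2-fold higher, and Ebf1 was at ratios of 1.05, 0.947 and 0.861. Of 20 cytoskeleton and axon genes, Cntnap2, an adhesion molecule of the juxtaparanode, was over 2-fold higher, at 13111, 8409 and 8932 CPM with ratios of 3.28, 2.58 and 2.76, and Ina was lower. The heavy neurofilament gene Nefh was at 382, 483 and 362 CPM with ratios of 0.484, 0.768 and 1.05. Sv2b, a glycoprotein of synaptic vesicles, was the 1 gene over 2-fold higher among 32 of synaptic release. None of 25 injury and regeneration genes and none of 24 interferon-inducible genes was over 2-fold higher in each library. Of the marker sets of known sensory neuron types, those with Bmpr1b or Smr2, each joined with Calca and Nefh, had 1 of 3 markers over 2-fold higher, so that no name of a known type is given to these nuclei.

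The Chrna7/Hgf nuclei were not uniform. When the 659 nuclei were clustered over 1500 variable genes, 9 clusters were found, and each held nuclei of all 3 libraries. The variable genes were chosen with the library as a batch, and the library was not used in the later steps of the clustering. Cluster numbers follow size, and the leading genes of a cluster describe it and were not tested. Beyond the genes of the rule, the clusters are given by their number and leading genes only.

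Cluster 1 (96, 35 and 23 nuclei) was led by Zswim2, Smr2 and Insrr, a receptor of the insulin receptor family. It held much of the Chrna7 RNA, at 1114, 996 and 1092 CPM, and it also had Htr3a at 125, 172 and 106 CPM and Calca at 513, 756 and 454 CPM. Cluster 7 (22, 6 and 9 nuclei), led by Gpm6a, a neuronal membrane glycoprotein, was as rich in Chrna7, at 1043, 1156 and 1086 CPM. Gm10754 was at 1194, 753 and 701 CPM in cluster 7. Both had little Ntrk3, at 56.5 to 118 CPM in cluster 1 and 34.1 to 35.5 CPM in cluster 7. In both, the 6 genes of the rule were a large part of the RNA, a median 0.272% and 0.354% of UMIs per nucleus.

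Cluster 2 (61, 30 and 16 nuclei) was led by Col7a1, a collagen of anchoring fibrils, Pappa, a protease of insulin-like growth factor binding proteins, and the delta opioid receptor gene Oprd1, which was at 70.3, 78.5 and 84.6 CPM there. Chrna7 was at 342, 201 and 292 CPM, and Ntrk3 at 2043, 2312 and 2353 CPM. Cluster 3 (57, 29 and 19 nuclei) was led by Cnih3, an auxiliary subunit of AMPA receptors, Arsj and Kcp, and next by the cold and menthol channel gene Trpm8, a marker of another neuron group, at 42.3, 64.9 and 91.6 CPM. It had Bmpr1b at 513, 499.7 and 656 CPM, Col11a1 at 1530.0, 1098 and 906 CPM and the receptor gene Kit at 285, 384 and 373 CPM. In cluster 3 Chrna7 was at 44.1, 54.6 and 108 CPM and Hgf at 189, 212 and 283 CPM. Cluster 3 was thus low in one of the 2 genes that name the nuclei and not in the other.

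Cluster 5 (33, 20 and 6 nuclei) was led by Igf1 and the receptor tyrosine kinase gene Alk. It held Kcnq5 at 6418, 4096 and 4870.4 CPM, Ntrk3 at 3638, 3131 and 2808 CPM and L3mbtl4 at 1896, 2215 and 1337 CPM. Clusters 1, 2, 3 and 7 had the nociceptor sodium channel gene Scn10a at over 1000 CPM in each library. Cluster 5 had it at 467, 69.0 and 62.4 CPM and cluster 4 at 58.1, 14.6 and 0 CPM.

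Cluster 4 (65, 27 and 11 nuclei) had Skor2 and Ntng1 among its leading genes, with Ntng1, a netrin-G of axon guidance, at 1296, 1243 and 1271 CPM and at most 101 CPM in clusters 1, 2, 3 and 5. It also held the serotonin receptor gene Htr1f at 449, 516 and 384 CPM and Ntrk2, the receptor for brain-derived neurotrophic factor, at 209, 346 and 238 CPM. Its nuclei were deep, with a median of 49375 UMIs, and the 6 genes of the rule made up a median of only 0.074%, so that 32 of its 103 nuclei had them at 0.1% or more. Chrna7 was at 68.5, 48.9 and 49.1 CPM in it. Cluster 4 supplied 27.5%, 22.7% and 12.5% of the summed UMIs of the Chrna7/Hgf nuclei.

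Clusters 6, 8 and 9 also carried RNA of other cell classes beside the genes of the rule. Cluster 6 (36, 15 and 7 nuclei) was led by Aspa, Cdh19 and Ttyh1, and the glial gene Apoe was at 406, 278 and 81.7 CPM in it. Only 45 of its 58 nuclei passed the neuron gate, and markers of glia, vessels, fibroblasts and immune cells made up 0.240% of its summed UMIs against 0.096% to 0.154% in the other 8 clusters. Cluster 8 (10, 11 and 6 nuclei) was led by Pde4c, Kcnmb2, Adcyap1 and Kcnc2, with Trpv1 at 324, 220.3 and 159.7 CPM and Tac1 at 469.7, 305 and 358 CPM. Cluster 9 (4, 4 and 1 nuclei) had Hrh1 and Tmem45b among its leading genes, Scn11a at 1046, 764 and 947 CPM, and a median of 0.032% for the 6 genes of the rule.

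**Figure D3:**
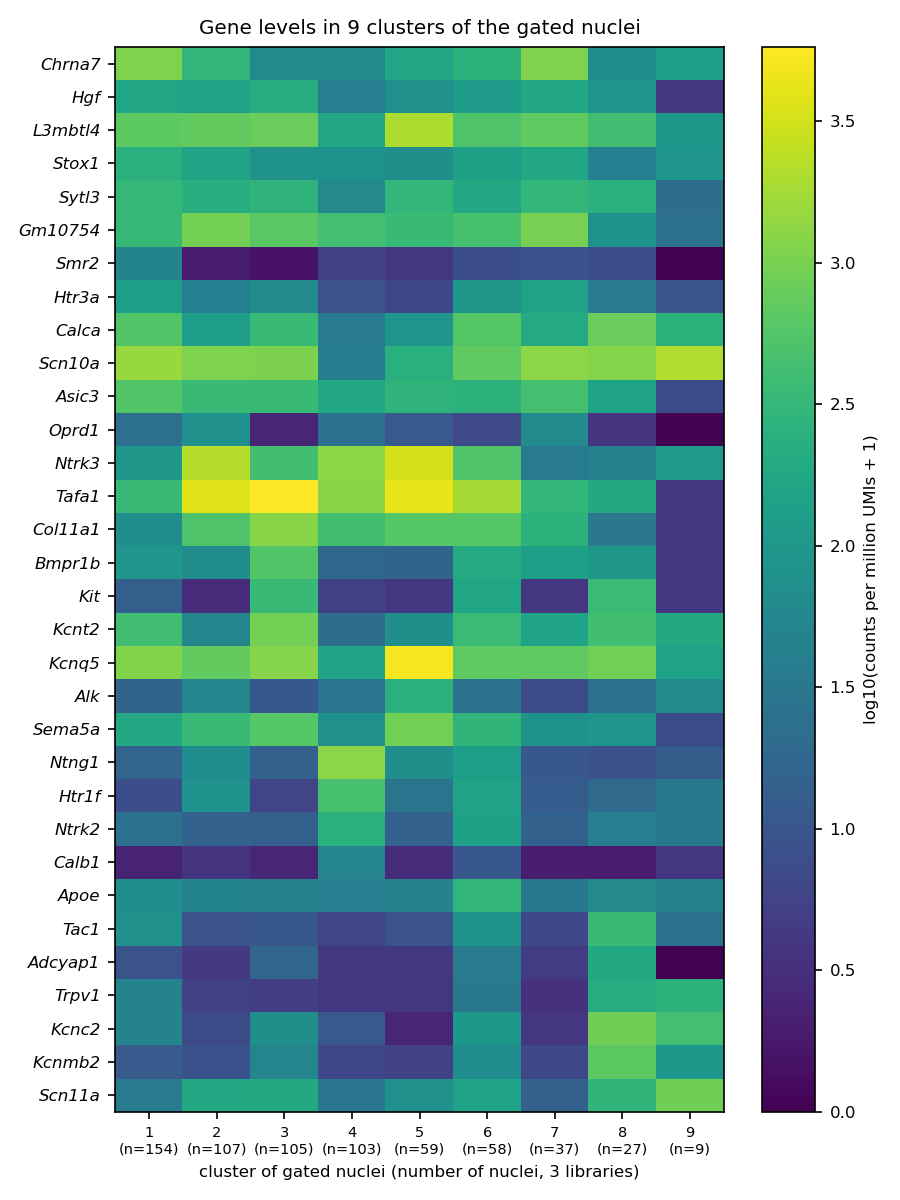
Level of the genes of the rule and of leading or named genes in the 9 clusters of Chrna7/Hgf nuclei, as log10 of CPM plus 1, with the nuclei of the 3 libraries summed. Chrna7 is highest in clusters 1 and 7, Tafa1 in clusters 2, 3 and 5, Ntng1 in cluster 4, glial Apoe in cluster 6, and Kcnc2 and Kcnmb2 in cluster 8.

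By age, the share of Chrna7/Hgf nuclei among neuronal nuclei was close to 10% at both ages (9.99%, 11.6% and 10.2%). The exact Clopper-Pearson 95% intervals, which cover counting error only, were 9.06% to 10.98%, 10.0% to 13.3% and 8.36% to 12.3%. The aged mean was 10.9% ± 0.980 (SD, n = 2), 1.09 times the adult value. By a two-sided exact permutation test over the libraries p was 0.667, and the smallest p that 1 against 2 libraries allow is 0.333. When each nucleus was thinned to 2000 UMIs before the rule was applied, the shares were 4.02%, 3.37% and 3.90%, and the direction turned, to 0.903 times.

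The age of the mice was not used to choose the nuclei, and gene levels by age were tested. Some genes of the rule differed between the ages, though, so the choice of nuclei can depend on age. Stox1 was at 189, 62.6 and 68.0 CPM, and Malat1 at a median of 4.87%, 1.58% and 1.57% of UMIs per nucleus. Without the Malat1 minimum 385, 179 and 98 nuclei were chosen. The neuronal nuclei went from 3845, 1528 and 961 to 4312, 2327 and 1273. Counts were summed over the Chrna7/Hgf nuclei of each library and compared with the quasi-likelihood test of edgeR, with adjusted p under 0.05 (Benjamini-Hochberg over all genes tested) as the threshold. With 1 adult and 2 aged libraries, the spread came from the aged pair and was assumed for the adult library too. The fit rescaled the library totals (TMM factors of 0.886, 1.075 and 1.049), whereas the CPM given here are not rescaled. The log2 fold changes therefore lie below the log2 ratios of the CPM. The study describes the libraries as biological replicates, while the labels do not say which mice each holds. A lower sum can mean fewer nuclei with the RNA or less RNA per nucleus, which cannot be told apart in sums.

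Of 16446 genes tested, 356 passed (2.16%), of which 22 were higher (0.134%) and 334 lower (2.03%) in the aged libraries. At an unadjusted p under 0.05 there were 2943 genes. In other neuronal nuclei of the same libraries, 351 of the 356 genes had the same sign. There 300 of them were called in the same direction, 13 of the 22 higher and 287 of the 334 lower ones. Both classes come from the same 3 libraries. The share of all genes called in other neuronal nuclei is not given here, so this overlap stands without a background. Subtracting free RNA at its upper limits of 10.6%, 13.0% and 15.9% ended every call (0 genes, 1534 at an unadjusted p under 0.05), while the log2 fold change of Meg3, for example, stayed as large (-1.34 before and after). Among the 356 genes, 59 (16.6%) were long intergenic noncoding and 38 (10.7%) antisense, against 6.45% and 4.60% of all genes tested.

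Bc1, Meg3 and other noncoding RNAs were among the genes that fell. Of 14 tested genes of a list of abundant noncoding RNAs, 8 passed and all 8 were lower in the aged libraries, with a list median of -1.12 on the log2 scale against -0.0008 over all genes. The list was written with their fall in these libraries known, so that this count and median describe the choice and are no independent evidence. Bc1 (chr7:144914470-144914637, plus strand), a small neuronal RNA that regulates translation in dendrites, was at 699.7, 11.8 and 8.12 CPM. Its log2 of aged over adult was -6.36 ± 0.20 (adjusted p = 0.000146 in edgeR). Each SE after ± on a log2 change was derived from the F statistic of the test and is no separate measure of precision. The noncoding Gm48594 was at 216, 2.89 and 1.75 CPM (-6.74 ± 0.21, adjusted p = 0.000146 in edgeR). Meg3, an imprinted noncoding RNA that is abundant in neurons, was at 16419, 7703 and 7838 CPM (-1.34 ± 0.14, adjusted p = 0.00753 in edgeR). Neat1 (-1.23), Snhg11 (-0.96), Xist (-1.03), Gm27177 (-4.56) and Gm44067 (-4.79) were the others. Of 3 tested sex-linked genes, Xist was the 1 that passed, and 0 had a positive log2 fold change. If the libraries differ in sex, that difference cannot be told apart from age here. Meg3 and Snhg11 had a UMI in all 384, 177 and 98 nuclei, Bc1 in 374, 52 and 29 and Gm48594 in 339, 15 and 7. Malat1, used to keep the nuclei, was at a median of 4.87%, 1.58% and 1.57% of UMIs per nucleus. In free RNA, read from barcodes of 10 to 100 UMIs, Bc1 was at 1258, 22.9 and 16.6 CPM and Gm48594 at 332, 32.4 and 32.0 CPM, in both cases highest in the adult library. Of 54 genes called by age that were followed one by one, 51 could be fitted after free RNA was subtracted, each with the same direction and none past the threshold. Bc1 was at -6.50 then (adjusted p = 0.0821 in edgeR).

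The other largest decreases included several genes that were close to absent from the aged libraries. Dsp, which encodes desmoplakin of desmosomes, had 177, 1 and 0 UMIs, a ratio of adult to aged of 181 with a counting interval of 32.1 to 7201. In the free RNA it was at 574, 0.686 and 1.76 CPM, and its 15.8 CPM in the adult Chrna7/Hgf nuclei is 2.75% of that, below the upper limit of 10.6% used for the subtraction, so that this limit takes away more Dsp than the adult sum holds. Gm32742 had 294, 3 and 0 UMIs, a ratio of 100.4 (34.0 to 490). Cd163, the haemoglobin scavenger receptor of macrophages, had 140.0, 1 and 1 UMIs, a ratio of 71.7 (19.5 to 598), and was at 12.5, 0.144 and 0.219 CPM in Chrna7/Hgf nuclei against 0.855, 0.568 and 0.217 CPM in other neuronal nuclei. Of the 140.0 adult UMIs of Cd163, 133 lay in 1 nucleus and the remaining 7 in 7 further nuclei, so that the value rests on that nucleus. It had 17863 UMIs in all, 35 of them over the 6 genes of the rule, and none of the macrophage markers of the lists. Dsp and Gm32742, by contrast, had a UMI in 124 and 181 adult nuclei, with no more than 5.10% of their UMIs in a single nucleus. Map3k7cl, Gm9920, Gm45397 and Gt(ROSA)26Sor, with log2 fold changes between -5.13 and -5.68, completed the 10 largest decreases, and other neuronal nuclei had them at -4.51 to -5.27.

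Of the gene lists, few members passed. Spint2, the protease inhibitor described above, was the 1 of 6 tested genes of the growth factor list, at 484, 130.0 and 141 CPM (log2 fold change -2.10 ± 0.14, adjusted p = 0.00176 in edgeR). It fell in other neuronal nuclei as well, from 78.7 to 34.7 and 20.6 CPM (-1.61). Of 14 nicotinic genes 0 passed in edgeR (5 at an unadjusted p under 0.05) and 0 in DESeq2, and of 8 neuropeptide genes likewise 0 and 0 (2 at an unadjusted p under 0.05 in edgeR). Asic3 was lower in both aged libraries (375, 282 and 261 CPM, log2 fold change -0.73 ± 0.13, adjusted p = 0.0488 in edgeR). Without the TMM scaling its log2 ratios to the adult library were -0.41 and -0.52. Tmc1 (-2.27), a channel of hair cells, and Trpm3 (-0.84) were the other 2 of 21 channel genes of this list, all lower. Of 46 potassium and pacemaker channel genes, Kcnd2 (26.5, 10.8 and 7.24 CPM, -1.78 ± 0.24) and Hcn3 (30.8, 13.0 and 14.3 CPM, -1.44 ± 0.19) fell and Kcnc2 rose. These are 3 calls in edgeR, against 2 in DESeq2 for this list. Of 25 calcium genes, Stim1, the sensor of calcium stores (276, 137 and 147 CPM, -1.22 ± 0.13), and Cacna1a, the P/Q-type channel (-0.80 ± 0.13), fell and Cacna1e, the R-type channel, rose. Chrm3, a muscarinic receptor, fell by 1.54 on the log2 scale, and Cntnap2 fell by 0.86. The background in each case is the 2.16% of all genes. In other neuronal nuclei the log2 fold changes were -0.53 for Asic3, -1.99 for Tmc1, -0.66 for Trpm3 and -0.56 for Stim1. They were -0.52 for Kcnd2, -0.38 for Hcn3, -0.33 for Cacna1a, -0.68 for Chrm3, -0.40 for Cntnap2 and 0.16 for Kcnc2.

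In 10 further lists 0 genes passed in edgeR and 0 in DESeq2. Over all genes tested 17.9% had an unadjusted p under 0.05 in edgeR. In the lists there were 5 of 13 sodium channel genes, 7 of 17 trophic receptors, 11 of 31 glutamate and GABA receptors, 11 of 39 transcription factors and 6 of 31 genes of synaptic release. There were 6 of 26 genes of injury and regeneration, 1 of 15 of senescence, 1 of 17 immediate early and heat shock genes, 3 of 18 clock genes and 7 of 29 interferon-inducible genes. In the last list 25 of 29 genes had a positive log2 fold change, against 49.9% of all genes tested, and the list median was 0.67 against -0.0008. Summed, the list was at 219, 311 and 338 CPM in Chrna7/Hgf nuclei and at 362, 490 and 440 CPM in other neuronal nuclei. It was at 751, 1251 and 1179 CPM in free RNA and at 1015, 1876 and 1697 CPM in kept nuclei that passed neither the rule nor the neuron gate. The part of free RNA and of these last nuclei in the shift was not tested. Of 31 tested markers of non-neuronal cells 3 passed (12 at an unadjusted p under 0.05), among them Fabp7 of satellite glia at 16.8, 5.35 and 3.51 CPM (-2.14 ± 0.29) and Pecam1 of endothelium at 41.6, 20.5 and 13.4 CPM (-1.53 ± 0.24). The other 3 of 4 tested endothelial markers had a positive log2 fold change, with a list median of 0.53. Of 5 tested satellite glial markers 2 had a positive log2 fold change, with a list median of -0.48. Summed, the satellite glial list was at 292, 357 and 340 CPM, higher in both aged libraries. The part of these non-neuronal markers in the results was not tested.

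**Figure D4:**
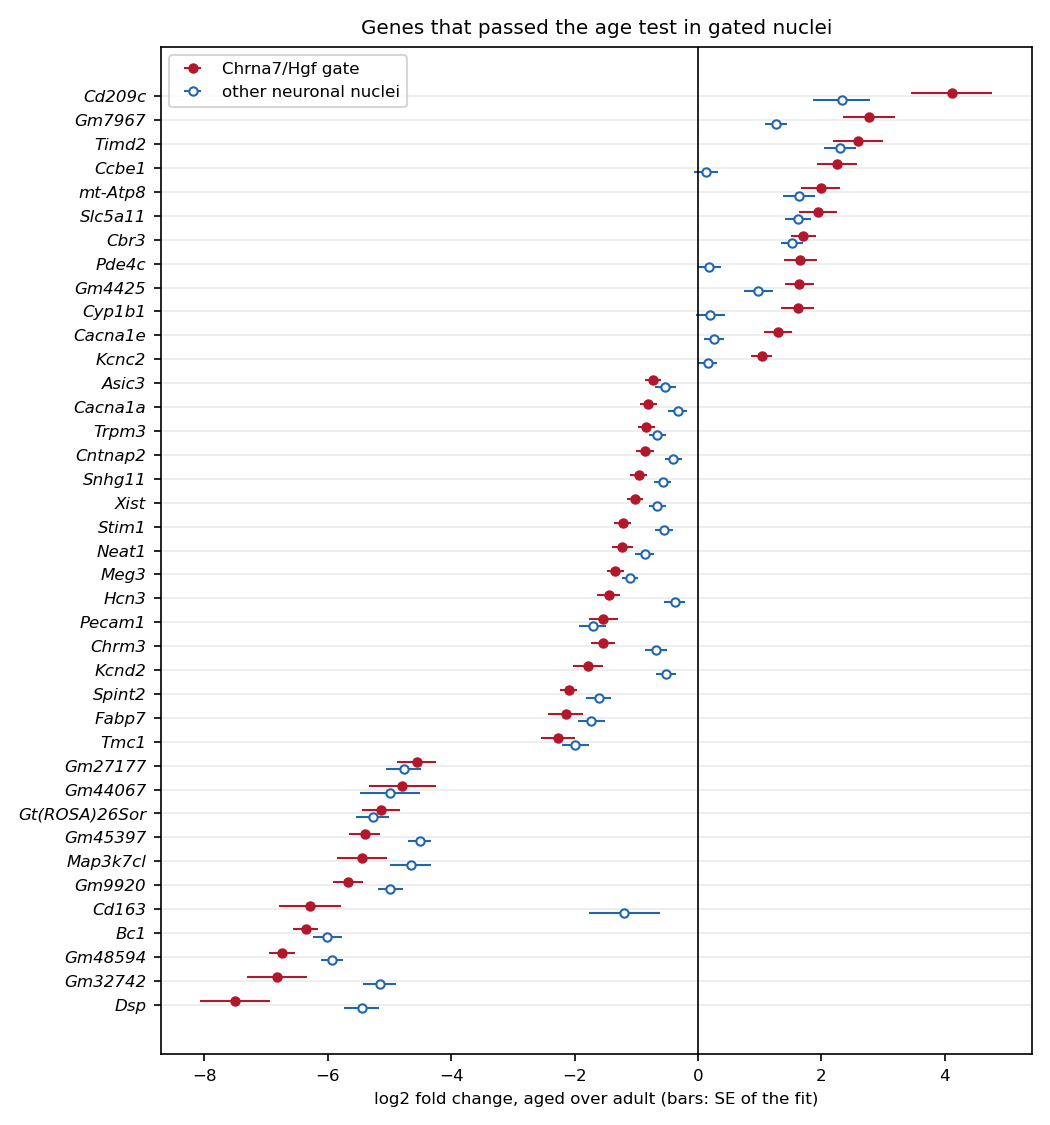
Log2 fold change of aged over adult in the Chrna7/Hgf nuclei (filled) and in other neuronal nuclei (open), with the SE of the fit, derived from its F statistic, as bars, for the 10 largest increases, the 10 largest decreases and further list genes that passed the edgeR test in Chrna7/Hgf nuclei. Both groups of nuclei come from the same 3 libraries. Bc1 lies at -6.36 and -6.01, and Cd163 at -6.29 and -1.19.

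Increases were fewer. Without the 5% of nuclei with the most UMIs all 22 kept a positive sign and 6 passed, namely Gm7967, Timd2, Ccbe1, Cbr3, 5730419F03Rik and Kcnmb2. Cbr3, a carbonyl reductase, was at 9.55, 40.0 and 34.7 CPM (log2 fold change 1.71 ± 0.20, adjusted p = 0.0123 in edgeR), and in other neuronal nuclei at 14.1, 43.9 and 42.9 CPM. Timd2, a receptor for ferritin, was at 2.59, 14.6 and 23.5 CPM (2.59 ± 0.40, adjusted p = 0.0313 in edgeR), and Slc5a11, an inositol transporter, at 4.73, 18.3 and 25.7 CPM. These rose by like amounts in other neuronal nuclei (1.52, 2.30 and 1.62). In free RNA Slc5a11 was at 8.70, 35.8 and 67.2 CPM. Cd209c had 3, 44 and 24 UMIs, a ratio of aged to adult of 22.1 with a counting interval of 7.26 to 110.0. The mitochondrial mt-Atp8 was at 5.17, 29.5 and 19.3 CPM, and at 134, 178 and 114 CPM in the free RNA. In aged replicate 1, 44.6% of its UMIs lay in cluster 6, and outside that cluster it was at 4.73, 18.2 and 19.2 CPM. Of 12 tested mitochondrially encoded genes it was the 1 that passed. Only 5 of the 12 had a positive log2 fold change, with a list median of -0.04. Gm7967 (2.77) and Gm4425 (1.64) are predicted genes.

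For 3 further increases the log2 fold change in other neuronal nuclei was smaller, at 0.13 for Ccbe1, 0.20 for Cyp1b1 and 0.26 for Cacna1e. Ccbe1, a secreted factor of lymphatic growth, was at 2.41, 12.6 and 15.4 CPM (2.26 ± 0.33, adjusted p = 0.0240 in edgeR), while other neuronal nuclei had it at 11.6, 13.8 and 13.4 CPM. Cyp1b1, a cytochrome P450, was at 4.55, 15.6 and 18.2 CPM against 8.98, 13.6 and 8.58 CPM, and Cacna1e at 36.8, 92.2 and 126 CPM (1.30 ± 0.23, adjusted p = 0.0469 in edgeR) against 58.2, 69.2 and 79.8 CPM. Of Cacna1e UMIs 57.5%, 57.5% and 64.4% lay in cluster 3, where it was at 143, 291 and 393 CPM. Cluster 8 supplied 15.5%, 35.7% and 28.3% of them at 423, 402 and 479 CPM, while the part of this cluster in the summed UMIs was 1.35%, 8.20% and 7.41%. Whether these changes differ from those of other neuronal nuclei is the interaction test below, which none of them passed.

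Kcnc2, Kcnmb2 and Pde4c were higher in the aged libraries, and so was the part of the sums that came from cluster 8. These 3 genes are among the leading genes of that cluster, so a split by it is no independent account of them. The part of the cluster in their changes was not tested. Kcnc2, a fast potassium channel, was at 43.8, 118 and 96.1 CPM (1.03 ± 0.17, adjusted p = 0.0392 in edgeR), Kcnmb2, a subunit of large-conductance potassium channels, at 24.4, 80.6 and 67.8 CPM (1.34 ± 0.18, adjusted p = 0.0171 in edgeR), and the phosphodiesterase gene Pde4c at 3.93, 15.3 and 14.5 CPM (1.66 ± 0.27, adjusted p = 0.0341 in edgeR). Cluster 8 supplied 1.35%, 8.20% and 7.41% of the summed UMIs and 35.6%, 59.3% and 58.9% of those of Kcnc2. It held 2.60%, 6.21% and 6.12% of the Chrna7/Hgf nuclei, at median depths of 14723, 51244 and 51194.5 UMIs. Within it, Kcnc2 was at 1158, 856 and 763 CPM, with the adult value highest, and outside it at 28.6, 52.6 and 42.6 CPM. Kcnmb2 was at 681, 609.7 and 737 CPM within the cluster and 15.5, 33.4 and 14.2 CPM outside. Pde4c was higher in both aged libraries within it, at 86.0, 118 and 148 CPM, and outside it, at 2.80, 6.14 and 3.79 CPM. With only the nuclei in which the 6 genes of the rule made up 0.1% of UMIs or more, an alternative chosen after these values were seen, the changes were 1.09 for Kcnc2, 1.10 for Kcnmb2 and 0.40 for Pde4c, of which Pde4c no longer passed (adjusted p = 0.744 in edgeR).

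The remaining 9 increases were Cd44, C1qtnf7, Ndn, Rbmx, 5730419F03Rik, C130026I21Rik, Gm48099, Gm37814 and 1700123O21Rik, with log2 fold changes from 0.97 to 1.44. Cd44, a receptor for hyaluronan, was at 24.2, 72.1 and 55.7 CPM (1.14 ± 0.20, adjusted p = 0.0455 in edgeR). Cluster 8 supplied 14.8%, 42.9% and 44.9% of its UMIs, and outside that cluster it was at 20.9, 44.9 and 33.2 CPM. When each nucleus was thinned to 2000 UMIs its sign turned, to -0.14. Ndn, the imprinted gene of the neuronal protein necdin, was at 11.1, 30.6 and 28.3 CPM (1.15 ± 0.19, adjusted p = 0.0399 in edgeR). In free RNA Ndn was at 101, 189 and 219 CPM, Cd44 at 216, 271 and 325 CPM and Gm48099 at 93.6, 229 and 238 CPM. Of the C130026I21Rik UMIs of aged replicate 1, 66.1% lay in cluster 3, and outside that cluster the gene was at 13.5, 19.1 and 43.6 CPM. Kcnmb2 and the 9 genes of this paragraph were named after their values were seen.

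The change with age in Chrna7/Hgf nuclei was set against that in other neuronal nuclei of the same libraries. Both share the 3 libraries, so the difference was tested as an interaction of age and class, with the library as a block in edgeR. The calls in other neuronal nuclei given above came from a separate age fit of those nuclei. Of 20210 genes, 0 passed (0%), with 1502 at an unadjusted p under 0.05. DESeq2 called 1 gene, with 264 at an unadjusted p under 0.05. The 5 genes with the smallest p, all with an adjusted p of 0.188 in edgeR, were Ccdc192, Tac1, B230323A14Rik, Gpc4 and Gm20560. Each of the 5 passed with no filter on low counts, with no Malat1 minimum and without the 5% of nuclei with the most UMIs, and for Ccdc192 the adjusted p was 0.00277, 0.00139 and 0.00309 there and 0.0284 in DESeq2. Ccdc192 was at 25.7, 12.4 and 10.7 CPM in Chrna7/Hgf nuclei and at 54.0, 79.7 and 80.0 CPM in other neuronal nuclei, a difference of the log2 changes of -1.85 ± 0.20. Tac1 was at 25.4, 57.1 and 48.0 CPM against 196, 167 and 141 CPM, a difference of 1.25 ± 0.16 in the other direction. Of the Tac1 UMIs, 24.9%, 43.8% and 55.3% lay in cluster 8. Gpc4, a glypican, was at 31.9, 4.05 and 5.26 CPM against 9.75, 5.64 and 5.63 CPM, and 201 of its 357 adult UMIs lay in 1 nucleus. B230323A14Rik had 64 of its 194 adult UMIs in 1 nucleus.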

How the data were processed

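Nuclei from frozen DRG were captured in droplets with PIP-seq. The authors aligned the reads to mm10 and deposited whole-number UMI counts per gene and barcode for each library, and the strand setting and annotation are not given in the sources used here. From these counts, 13 genes including Malat1 chose the nuclei, and the counts of the chosen nuclei were summed per library (3 libraries). The 2 ages were compared with edgeR 4.0.16 (TMM scaling, filterByExpr, quasi-likelihood test, Benjamini-Hochberg adjustment, R 4.3.3), with DESeq2 1.42.0 as an alternative. The study's own test on single nuclei was not used, since nuclei of a library are not replicates. Clusters came from scanpy 1.11.5 (Leiden, resolution 0.6, 15 principal components). Free RNA was estimated from barcodes of 10 to 100 UMIs, and no doublet caller was run. Intervals cover counting error only. Calls leave out the 13 genes. Named by rule were the 20 highest and 10 lowest ratios, the 10 largest increases and decreases by age with at least 20 UMIs, list genes that passed or had most UMIs, and the 5 smallest interaction p-values. Further list genes and the cluster genes were named after their values were seen. The nuclei and gene lists were chosen with earlier results of these data known. Gene positions are from GENCODE M21 (GRCm38). Results for a few genes are not reported here.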

Additional observations from a re-analysis of the deposited data

How the results depend on the processing

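The 356 genes called by age (22 higher, 334 lower) became 1585 with no filter on low counts, 232 in DESeq2 (209 of them shared), 589 with no Malat1 minimum, 209 (6 higher, 203 lower) without the 5% of nuclei with most UMIs, 98 with each nucleus thinned to 2000 UMIs, 670 with 10 UMIs from 4 genes of the rule, 694 with nuclei that pass the neuron gate, 742 with the 6 genes at 0.1% of UMIs or more (chosen after seeing the data) and 0 with free RNA subtracted. The cause of these shifts was not tested. Lower genes outnumbered higher ones in each of these settings with calls, for example 3 against 95 (higher against lower) when thinned and 361 against 1224 with no filter. Without aged replicate 1 or 2, which leaves 1 library an age and no test, all 356 genes kept their sign. The genes were called on these same libraries, so this is no independent check. For the interaction, the 0 genes became 47 with no filter, 1 in DESeq2, 33 with no Malat1 minimum, 39 without the 5% of nuclei with most UMIs and 92 with the 6 genes at 0.1% or more. The aged to adult ratio of the share of nuclei, 1.09, turned to 0.862 with no Malat1 minimum and to 0.903 when thinned, and was 1.02 to 1.16 with 1 aged library left out. Of single genes, Cd44 turned to -0.14 when thinned. DESeq2 kept the call of 42 of the 54 genes followed one by one. No paired analysis was possible because the groups share fewer than 2 replicate numbers (1 adult library against 2 aged). With 1 adult library, the age and that library cannot be told apart, and genes below a few UMIs per library give only wide counting intervals.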
